A study of Homo sapiens with 3 samples.

Results

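The genes described here are the amino acid transporter genes, read through their accessible chromatin in hCMEC/D3, an immortalized cell line from the microvascular endothelium of human brain. Members were chosen by symbol alone, as protein-coding genes of the RefSeq gene table of GRCh38.p14 in the solute carrier (SLC) families SLC1A, SLC3A, SLC6A, SLC7A, SLC36A, SLC38A and SLC43A. This gave 60 of 20037 protein-coding genes. The SLC6A family had 19 members, SLC7A 13, SLC38A 12, SLC1A 7, SLC36A 4, SLC43A 3 and SLC3A 2. The family names also take in carriers of taurine, creatine, monoamines and nucleobases, so not every member carries an amino acid.

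The study profiled confluent hCMEC/D3 cells, grown on collagen, by ATAC-seq and RNA-seq, and its title concerns the diversity of mouse endothelium from organ to organ. ATAC-seq cuts and tags accessible DNA with the Tn5 transposase. The values below come from 1 library, ATAC replicate 2, with no second group, treatment or cell type, so every difference between genes is a description of that library and no test was made. A single cultured line also has no neighbouring brain cells, which limits it as a model of the barrier. The RNA libraries list transcripts without gene names, so expression of the members was not analysed here.

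Amino acid transporters let the brain endothelium pass nutrients that cannot cross its sealed junctions. SLC7A5, a light chain that carries large neutral amino acids, works only as a pair with SLC3A2, the CD98 heavy chain that brings it to the membrane, and SLC7A1 carries the cationic amino acids arginine and lysine. Several SLC6 carriers instead use sodium and chloride to take neurotransmitters, such as GABA, glycine, dopamine, noradrenaline and serotonin, back into neurons and glia. Many transporter genes are known targets of ATF4, the transcription factor of the amino acid response, which binds with C/EBP partners to a composite element.

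The list was called from 22188172 tags and held 106415 peaks, the lowest with a pileup of 8.0 tags. The pileup is the height of stacked tags that the authors' peak caller gives a peak. In the following, a peak at a gene end overlaps the 1 kb on either side of either end of the gene. Of the endothelial markers PECAM1, CDH5, TIE1, TEK, KDR, ERG, CLDN5 and VWF, all 8 had a peak at an end, and so had 4 of 5 neuronal, 2 of 3 astrocyte, 1 of 3 oligodendrocyte, 4 of 4 mural or mesenchymal and 2 of 2 leukocyte markers. An end peak was present at 72.8% of all protein-coding genes, so its presence alone does not tell cell types apart. AQP4, MOG and OLIG2, which mark astrocytes and oligodendrocytes, had no peak in or near the gene. The other markers of these lists did, with 3 peaks for GFAP and 5 for ALDH1L1 of astrocytes, and 21 for MBP of oligodendrocytes.

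The promoters of the 3 barrier genes named first and of 4 neuronal or glial SLC6 genes are printed to show the sequence at their annotated starts, which a peak covers in some and not in others. Each is 250 bases before to 50 bases after an annotated start, 5′ to 3′ along the gene, from RefSeq on GRCh38.p14. Capitals mark each match to GGGCGG, the GC box, or TGATGNAA, the composite of ATF4 and C/EBP, on either strand. SLC7A5 is chr16:87869458-87869757 (minus strand), SLC3A2 is chr11:62855859-62856158 (plus) and SLC7A1 is chr13:29595639-29595938 (minus). SLC6A4 is chr17:30235648-30235947 (minus), SLC6A5 is chr11:20599358-20599657 (plus), SLC6A7 is chr5:150189812-150190111 (plus) and SLC6A11 is chr3:10815978-10816277 (plus). A peak lay over the windows of SLC7A5, SLC3A2, SLC7A1 and SLC6A4, and none over those of SLC6A5, SLC6A7 and SLC6A11.
SLC7A5: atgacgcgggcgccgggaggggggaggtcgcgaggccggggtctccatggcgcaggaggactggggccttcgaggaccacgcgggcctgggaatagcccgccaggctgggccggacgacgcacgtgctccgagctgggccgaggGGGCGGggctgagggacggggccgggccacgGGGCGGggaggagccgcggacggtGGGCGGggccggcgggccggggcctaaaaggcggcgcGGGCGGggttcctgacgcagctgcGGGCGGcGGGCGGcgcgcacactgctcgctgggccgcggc
SLC3A2: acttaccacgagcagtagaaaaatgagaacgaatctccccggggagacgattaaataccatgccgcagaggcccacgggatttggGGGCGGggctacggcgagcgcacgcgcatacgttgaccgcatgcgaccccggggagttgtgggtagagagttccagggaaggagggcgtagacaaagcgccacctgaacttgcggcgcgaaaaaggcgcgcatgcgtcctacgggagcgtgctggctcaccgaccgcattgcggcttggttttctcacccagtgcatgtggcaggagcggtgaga
SLC7A1: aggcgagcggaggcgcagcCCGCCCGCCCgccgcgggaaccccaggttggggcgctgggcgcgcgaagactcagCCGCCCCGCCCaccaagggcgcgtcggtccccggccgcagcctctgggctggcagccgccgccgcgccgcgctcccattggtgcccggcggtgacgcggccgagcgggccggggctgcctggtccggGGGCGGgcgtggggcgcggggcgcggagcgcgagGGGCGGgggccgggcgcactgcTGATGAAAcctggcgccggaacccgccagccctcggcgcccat
SLC6A4: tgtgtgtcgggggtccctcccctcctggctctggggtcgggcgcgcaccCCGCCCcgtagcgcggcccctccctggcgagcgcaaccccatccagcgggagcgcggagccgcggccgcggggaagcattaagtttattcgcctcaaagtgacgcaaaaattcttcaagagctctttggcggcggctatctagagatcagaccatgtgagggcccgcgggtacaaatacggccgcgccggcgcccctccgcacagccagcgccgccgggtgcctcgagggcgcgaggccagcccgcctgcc
SLC6A5: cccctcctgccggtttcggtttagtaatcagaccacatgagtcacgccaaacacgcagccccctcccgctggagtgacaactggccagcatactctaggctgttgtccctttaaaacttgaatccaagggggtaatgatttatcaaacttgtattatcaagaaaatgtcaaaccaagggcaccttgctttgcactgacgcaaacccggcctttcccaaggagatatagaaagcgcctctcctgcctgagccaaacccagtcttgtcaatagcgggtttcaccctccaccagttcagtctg
SLC6A7: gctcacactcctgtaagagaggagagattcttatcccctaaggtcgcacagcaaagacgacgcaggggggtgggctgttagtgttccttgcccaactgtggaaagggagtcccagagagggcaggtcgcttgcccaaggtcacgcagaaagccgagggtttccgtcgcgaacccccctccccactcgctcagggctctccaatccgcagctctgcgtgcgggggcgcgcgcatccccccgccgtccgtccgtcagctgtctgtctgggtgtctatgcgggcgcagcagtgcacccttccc
SLC6A11: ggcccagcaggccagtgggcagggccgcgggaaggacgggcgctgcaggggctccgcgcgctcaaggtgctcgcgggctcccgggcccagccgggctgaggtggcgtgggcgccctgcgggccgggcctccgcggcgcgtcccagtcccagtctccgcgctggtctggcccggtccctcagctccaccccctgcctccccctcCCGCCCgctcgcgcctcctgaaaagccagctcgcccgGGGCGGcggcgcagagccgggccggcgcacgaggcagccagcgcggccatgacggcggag

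The 3 barrier windows held 44, 30 and 49 CpG dinucleotides and 6, 1 and 6 GC boxes, in the order printed. The serotonin transporter window of SLC6A4 held 36 CpG and 1 GC box. SLC6A11, a GABA carrier of glia, held 39 CpG and 2 GC boxes, and no peak was called over it. SLC6A5, the glycine carrier of inhibitory neurons, held 9 CpG and SLC6A7, a proline carrier of neurons, 22, and neither held a GC box.

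Of the 60 members, 54 (90.0%, 95% Wilson interval 79.9% to 95.3%) had a peak in the gene or within 1 kb, compared with 83.7% of all protein-coding genes. The median member was longer, at 46.5 kb against 24.1 kb. Among genes of 20 to 50 kb, 20 of 22 members had such a peak, against 92.1% of all protein-coding genes of that length. Among genes of 50 to 100 kb the values were 22 of 23 and 94.8%. At a gene end, 37 members (61.7%, 49.0% to 72.9%) had a peak, compared with 72.8% of all protein-coding genes, a background just inside the upper bound. Among genes of 20 to 50 kb, 13 of 22 members had an end peak, against 80.8% of all protein-coding genes of that length. Among genes of 50 to 100 kb the values were 16 of 23 and 80.0%, so the background at these lengths was above that bound. Without end peaks that also lay at an end of another protein-coding gene, the shares were 55.0% of members and 55.5% of all protein-coding genes, a difference of less than the interval's width. With windows of 2500 bp they were 73.3% and 79.2%. These intervals treat genes as independent draws and cover counting error only. The family shares below stand beside those of all protein-coding genes without regard to gene length. The members without any peak were SLC1A6, a glutamate carrier of Purkinje neurons, SLC6A14, SLC6A18, SLC7A3, SLC7A4 and SLC7A13. A further 17 members had peaks inside the gene only.

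**Figure D1:**
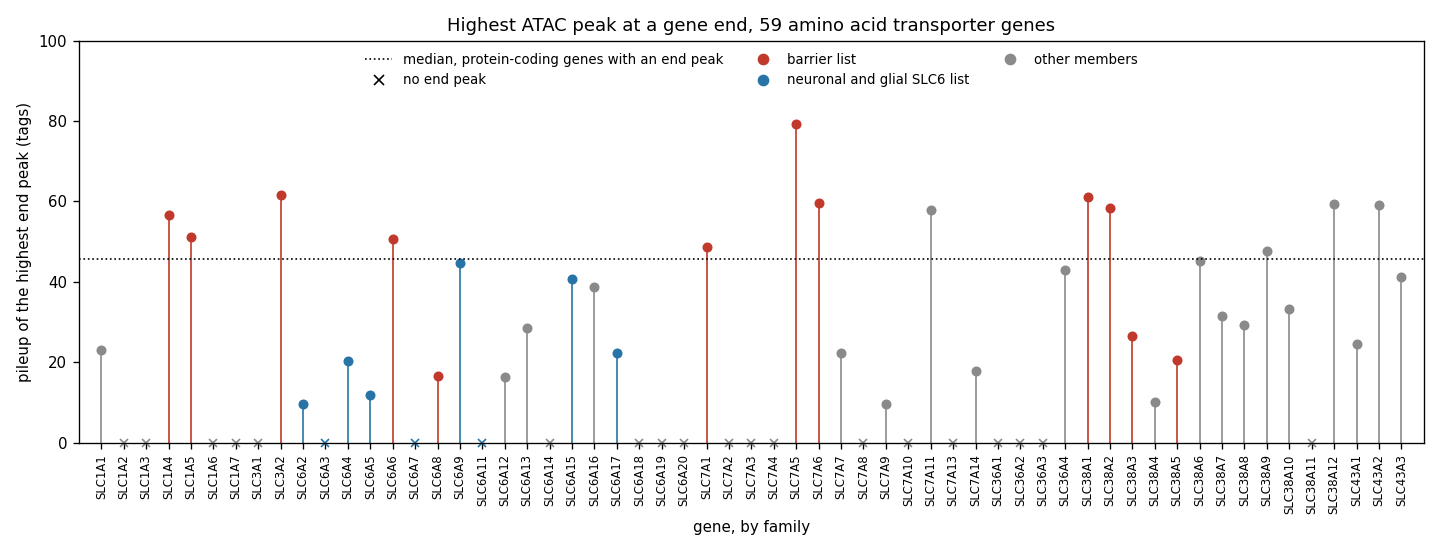
Pileup (tags) of the highest ATAC peak at a gene end for 59 members, ordered by family; crosses mark members without an end peak and the dotted line is the median of 45.7 tags over all protein-coding genes that have an end peak. Of the barrier list, 9 of 12 genes lie above the line, and no neuronal or glial SLC6 gene does.

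SLC7A5 (RefSeq gene 8140, 39.5 kb) had 10 peaks, or 2.41 per 10 kb. Its highest lay on chromosome 16 from 87868233 to 87868690, reached 79.2 tags over 458 bp, and had a fold enrichment over local background of 3.34. That peak began 817 bp inside the gene, and a separate peak of 52.2 tags and 696 bp, from 87869073 to 87869768, covered the start itself. Among 14595 protein-coding genes that had an end peak, its height stood at the percentile 93.3. The 7 peaks inside the gene ran from 37.7 to 65.0 tags, so the accessibility of SLC7A5 spread along the gene. The last peak, at the far end, had 15.7 tags.

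SLC3A2 (RefSeq gene 6520, 32.8 kb) had 4 peaks. The peak over its outermost start, on chromosome 11 from 62855780 to 62856500, reached 61.6 tags, 5.19-fold over background. A second wide peak of 2188 bp and 54.3 tags, from 62879698 to 62881885, covered 2 further annotated starts and was centred 24.7 kb downstream. SLC3A2 thus showed 2 separate accessible promoter regions of similar pileup, although the second was only 3.55-fold over background. Its peaks at 29.7 and 19.4 tags lay inside the gene and beyond its far end.

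SLC7A1 (RefSeq gene 6541, 86.3 kb) had 9 peaks. The start lay under a peak of 1941 bp on chromosome 13 from 29594228 to 29596168, which reached 48.8 tags, 4.12-fold over background. Inside the gene, peaks of 43.9 and 33.1 tags were centred 33.6 and 31.6 kb from the start, and the other 5 ran from 8.44 to 19.9 tags. SLC7A1 was thus accessible mainly at its start and at a pair of sites in the gene body.

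**Figure D2:**
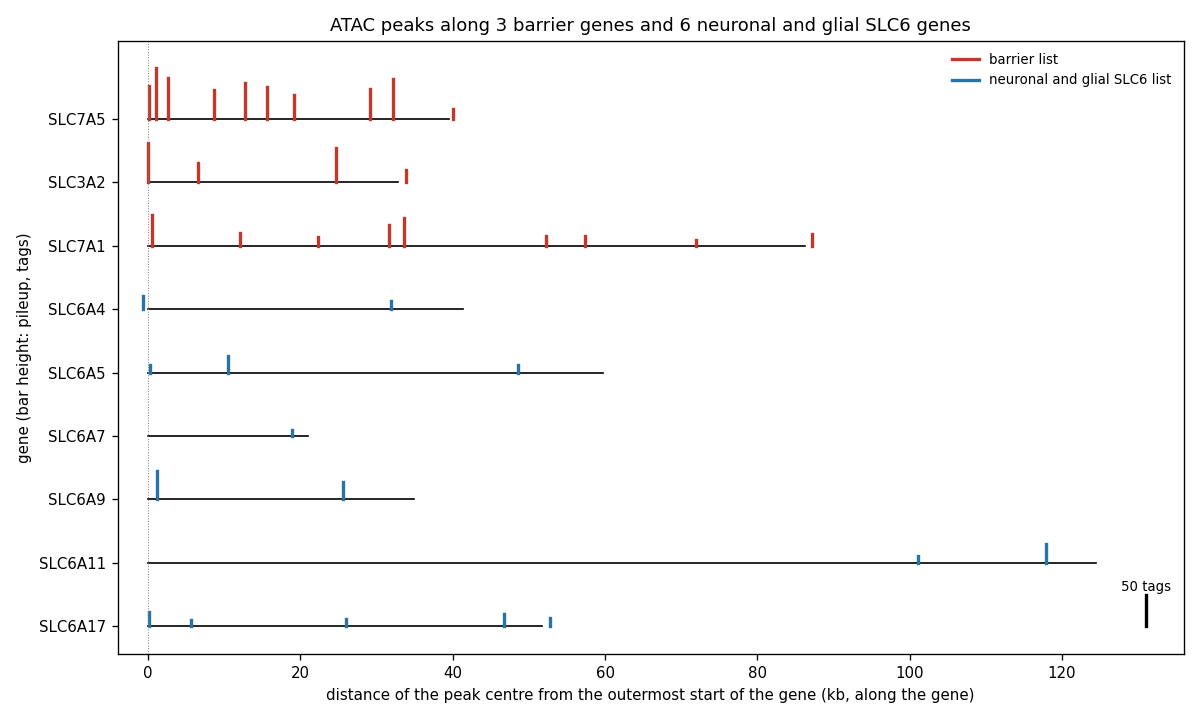
Position of ATAC peaks along SLC7A5, SLC3A2, SLC7A1 and the 6 neuronal or glial SLC6 genes with an annotated start, as distance of the peak centre from the outermost start (kb); bar height is the pileup (tags) and black lines are the genes. SLC7A5 has 10 peaks over 39.5 kb, whereas SLC6A11 has 2 peaks over 124 kb, both more than 100 kb from its start.

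The wider barrier list added 9 carriers known from brain endothelium to these 3. All 12 had an end peak, against 72.8% of all protein-coding genes. The list was chosen with earlier results of these data known, so this count does not test a trait of barrier carriers. The highest end peaks of the 12 had a median pileup of 53.9 tags (range 16.6 to 79.2), compared with 45.7 over all protein-coding genes that had one. The sodium-coupled neutral amino acid carriers SLC38A1 and SLC38A2, which take up glutamine and alanine, had 61.2 and 58.3 tags. SLC38A2 had 4 peaks in a gene of 14.6 kb, among them 3 at its ends. The neutral amino acid exchangers SLC1A4 and SLC1A5 had 56.6 and 51.1 tags, and SLC7A6, a light chain that exchanges cationic for neutral amino acids, 59.6.

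SLC6A6, the taurine carrier, had 14 peaks, the most of any member. Its end peak had 50.6 tags, and a peak inside the gene on chromosome 3 from 14460553 to 14461152 reached 66.6 tags. The 3 lowest of the list were the glutamine carriers SLC38A3 with 26.6 tags and SLC38A5 with 20.6, and the creatine carrier SLC6A8 with 16.6. SLC38A5 and SLC6A8 lie on chromosome X, where 54.1% of protein-coding genes had an end peak and those peaks had a median of 34.7 tags. The end peak of SLC6A8 ended 39 bp before its start and also lay at an end of PNCK, so it cannot be assigned to SLC6A8 alone.

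All 10 neuronal or glial SLC6 genes had a peak in the gene or within 1 kb, against 83.7% of all protein-coding genes. That background was 92.1% among genes of 20 to 50 kb and 94.8% among genes of 50 to 100 kb. Of the 10 genes, 6 (60.0%, 31.3% to 83.2%) had an end peak, an interval that holds the 72.8% of all protein-coding genes. Their highest end peaks had a median of 21.4 tags, from 9.54 to 44.7. Every one of the 6 was under the protein-coding median, while 9 of the 12 barrier genes were above it. End pileup did not follow cell type in the marker lists, where the endothelial markers had a median of 35.0 tags, also under it, the neuronal markers 27.9 with TUBB3 at 96.6, and the mural or mesenchymal markers 46.0. The 2 ranges overlapped, because SLC6A8, SLC38A3 and SLC38A5 of the barrier list lay within the neuronal range. The highest in the neuronal list were SLC6A9, a glycine carrier found mainly on glia, with 44.7 tags, and SLC6A15, a neutral amino acid carrier of neurons, with 40.6 tags. The peak of SLC6A9 began 467 bp inside the gene and left its promoter window uncovered.

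SLC6A17, a carrier of synaptic vesicles, had a peak of 22.4 tags over its start, and SLC6A4, the serotonin transporter, one of 20.3 tags. SLC6A5 had a peak of 200 bp and 11.8 tags that began 192 bp after its start. SLC6A2, the noradrenaline transporter, had an end peak of 9.54 tags, close to the lowest pileup in the list. Among the genes without an end peak, SLC6A3, the dopamine transporter, had 1 peak of 24.0 tags inside the gene, SLC6A7 had 1 of 9.03 and SLC6A11 had 2 of 11.0 and 29.4 tags. Where no peak was called, accessibility was under what this depth could detect, which does not show closed chromatin.

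Over every peak of each list, the 65 barrier peaks had a median pileup of 34.9 tags and the 24 neuronal or glial peaks 17.2. The genes of the barrier list held a median of 4 peaks, or 1.36 per 10 kb, and the neuronal or glial genes 2 peaks, or 0.47 per 10 kb. The median over all protein-coding genes was 2 peaks, or 0.69 per 10 kb. The median barrier gene was the shorter, at 34.1 kb against 51.0 kb for the neuronal or glial list. Among genes of 20 to 50 kb, 4 of 4 barrier genes had an end peak, with a median of 4 peaks in the gene, and 2 of 4 neuronal or glial genes, with a median of 1.5. Of all protein-coding genes of that length, 80.8% had an end peak and the median number of peaks was 2. Among genes of 50 to 100 kb the counts were 3 of 3 and 4 of 5, with medians of 9 and 3 peaks, and 80.0% of all protein-coding genes of that length had an end peak.

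**Figure D3:**
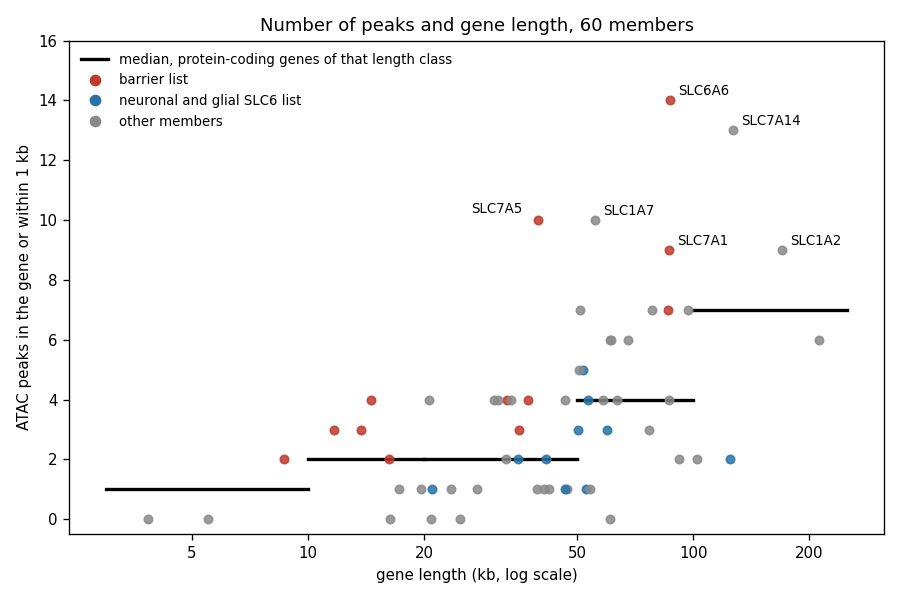
Number of ATAC peaks in the gene or within 1 kb against gene length (kb, log scale) for the 60 members; black lines are medians of all protein-coding genes in the same length class. SLC6A6, with 14 peaks, and SLC7A5, with 10, lie above the medians of their classes, 4 and 2.

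By median, the highest end peaks of the barrier list stood above those of the neuronal or glial list in pileup but not in fold enrichment. The fold of a peak divides its pileup, plus 1, by the background that the caller estimates around it, plus 1. The highest end peaks of the barrier list had a median background of 11.1 tags, compared with 3.25 for the neuronal or glial list. Their median folds were 3.90 and 4.53. At a fold of at least 4, 5 of 12 barrier genes (41.7%) and 4 of 10 neuronal or glial genes (40.0%) had an end peak, against 36.7% of members and 56.0% of all protein-coding genes. Any peak was then left in 78.3% of members and 73.6% of all protein-coding genes. The genes lost from the barrier list were SLC1A5, SLC6A8, SLC7A5, SLC7A6, SLC38A1, SLC38A2 and SLC38A5. With the same number of peaks chosen by pileup instead, the counts were 11 of 12 and 4 of 10, against 65.6% of all protein-coding genes, and any peak was left in 78.3% of members, against 76.1%. Of the neuronal or glial peaks, 15 of 24 (62.5%) had a background within 0.01 tags of the lowest in the list, 2.37, as did 8 of 65 barrier peaks (12.3%). That value is the background set by the genome size given to the caller, and its part in the result was not tested.

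**Figure D4:**
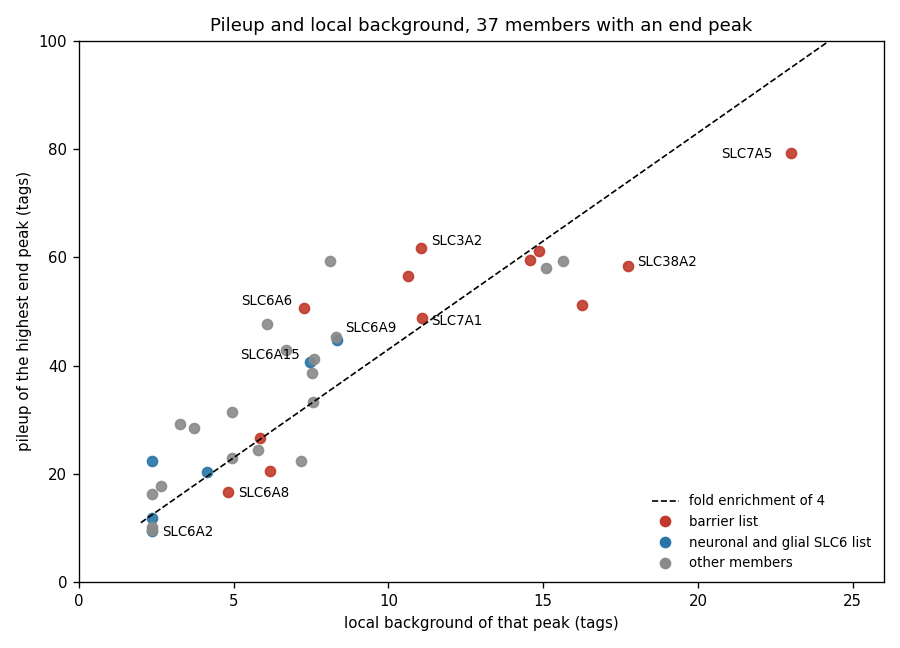
Pileup of the highest end peak (tags) against the local background of that peak (tags) for the 37 members with an end peak; the dashed line marks a fold enrichment of 4. SLC7A5, with 79.2 tags over a background of 23.0, lies under the line, and SLC6A17, with 22.4 tags over 2.37, lies above it.

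The other members were described by family. Of the remaining SLC6 genes, mostly carriers of kidney, gut and liver, 3 of 7 had an end peak (42.9%, 15.8% to 75.0%). That interval holds the 72.8% of all protein-coding genes. None of the 6 with an annotated start in the table had a peak within 1 kb of it, against 74.0% of all protein-coding genes with such an entry. SLC6A13, a GABA and taurine carrier, had a peak of 28.4 tags at its far end only. The highest end peak of SLC6A16, with 38.6 tags, also lay at ends of CD37 and TEAD2. The only annotated start of SLC6A16 is inside the gene, and that peak lay 13809 bp before it. A peak of 11.6 tags lay at the far end of SLC6A16. SLC6A12, the betaine carrier, had an end peak of 16.3 tags. SLC6A19 and SLC6A20 each had 1 peak, inside the gene, of 17.7 and 17.8 tags.

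In the SLC7A family 7 of 13 members had an end peak (53.8%, 29.1% to 76.8%), an interval that holds the 72.8% of all protein-coding genes. SLC7A11, the cystine and glutamate exchanger, had 7 peaks and an end peak of 57.9 tags on chromosome 4 from 138241429 to 138242738, above the protein-coding median. SLC7A7 had an end peak of 22.3 tags. SLC7A8, a second light chain for neutral amino acids, had no end peak. Its peaks of 31.6 and 24.6 tags covered inner annotated starts and were centred 29.3 and 28.2 kb from the outermost start. SLC7A14, a lysosomal member found in neurons, had 13 peaks in 127 kb, where the median protein-coding gene over 100 kb had 7. Its end peak had 17.8 tags. SLC7A9, the kidney light chain, had a peak of 9.67 tags 335 bp before its start. SLC7A2 and SLC7A10 had peaks inside the gene only, the highest of 51.3 and 9.50 tags, and SLC3A1, the heavy chain that pairs with SLC7A9 in the kidney, had 1 such peak of 13.6 tags.

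In the SLC1A family, the glutamate carriers and their relatives, 3 of 7 members had an end peak (42.9%, 15.8% to 75.0%). That interval holds the 72.8% of all protein-coding genes. The 3 were the barrier members SLC1A4 and SLC1A5, and SLC1A1, whose peak of 23.0 tags also lay at an end of GLIS3. SLC1A2, the main glutamate carrier of astrocytes, had 9 peaks inside its 169 kb and none at an end. SLC1A3, the other astrocyte glutamate carrier, had a peak of 15.2 tags over a pair of inner starts, centred 10.2 kb from the outermost start, on chromosome 5 from 36606521 to 36607027. SLC1A7 had 10 peaks and no end peak. The highest of these, with 57.3 tags, lay inside the gene on chromosome 1 from 53112431 to 53112878.

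The SLC38A family had an end peak at 11 of 12 genes, with SLC38A11 the exception. The Wilson interval of that share, 64.6% to 98.5%, holds the 72.8% of all protein-coding genes. SLC38A11 had 6 peaks, all inside the gene and none above 30.4 tags. Outside the barrier list, SLC38A9, the lysosomal arginine sensor that signals to mTORC1, had 47.6 tags and a fold of 6.88. SLC38A6 had 45.2 tags at an end shared with TRMT5, and SLC38A12 59.3 tags at an end shared with NAT9. SLC38A10 had 33.4 tags, SLC38A7 31.4, SLC38A8 29.2 and SLC38A4 10.1. The peak counted for SLC38A8 lay 1380 bp before its annotated start, which is inset from the end of the gene. SLC38A4, known mainly from liver, also had a peak of 53.2 tags inside the gene.

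All 3 SLC43A genes had end peaks (43.9% to 100%), an interval that holds the 72.8% of all protein-coding genes. The pileup was 59.2 tags for SLC43A2, a carrier of large neutral amino acids, 41.2 for SLC43A3, a nucleobase carrier, and 24.5 for SLC43A1. In the proton-coupled SLC36A family, SLC36A4 had an end peak of 42.8 tags and the other 3 had none. The peaks of SLC36A2 and SLC36A3 inside the gene reached 18.6 and 18.3 tags. SLC36A1, the lysosomal carrier, had a peak of 33.7 tags and 1213 bp over an inner annotated start, on chromosome 5 from 151447329 to 151448541. SLC1A3, SLC7A8 and SLC36A1 were the 3 members with a peak within 1 kb of an inner start and no end peak.

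An annotated start was found for 45 members, with 67 promoter windows between them. Among the remaining 15 were SLC1A2, SLC3A1, SLC6A2, SLC6A3, SLC6A6, SLC6A12, SLC6A15, SLC7A2, SLC7A3, SLC7A4, SLC7A11, SLC7A13, SLC38A3 and SLC43A3. Of the 45, 29 had a peak at the outermost start end and 7 at the far end, of which 6 had both. A peak lay over a promoter window of 24 members (53.3%), compared with 70.2% of protein-coding genes with such an entry. In the barrier list this was 9 of 10, with SLC38A5 the exception, and in the neuronal or glial list 2 of 6. Within 1 kb of an annotated start, 30 of 45 members (66.7%) had a peak, against 74.0%.

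Windows under a peak were richer in CpG. The 37 member windows with a peak had a median of 26 CpG dinucleotides (range 2 to 49) and the 30 without a peak 7.5 (1 to 39). Over all protein-coding genes the medians were 27 and 5. Of the member windows with fewer than 10 CpG, 4 of 21 had a peak, and of those with 30 or more, 12 of 14. The corresponding shares of all protein-coding windows were 20.3% and 89.8%. Windows of the same gene share sequence and a peak, so these counts are a description.

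**Figure D5:**
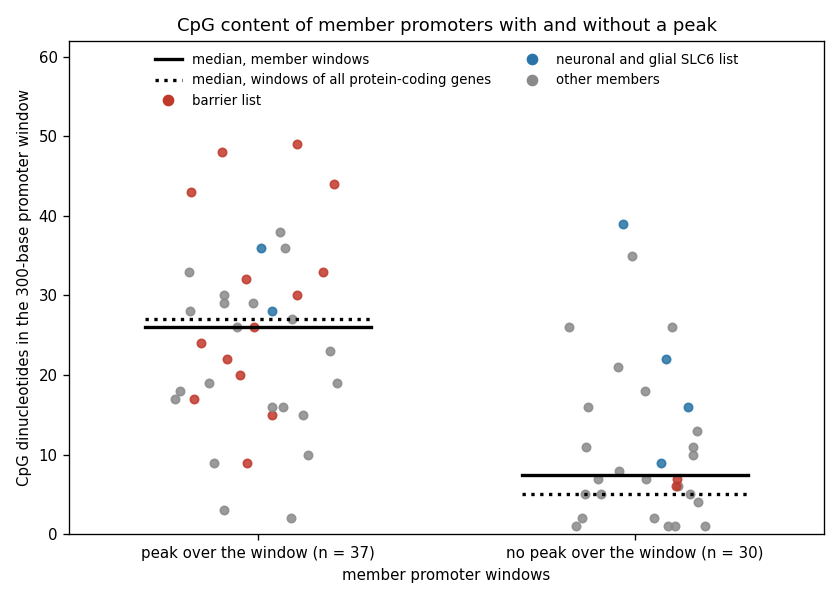
CpG dinucleotides in each of the 67 promoter windows of 300 bases, for 37 windows with and 30 without a peak over them; solid lines are medians of the member windows and dotted lines those of all protein-coding genes. The member medians are 26 and 7.5, and SLC6A11, with 39 CpG, is the highest window without a peak.

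Of 6 motifs searched on both strands, TGATGNAA, the composite of ATF4 and C/EBP, was found in 5 of the 16 barrier windows (31.2%), those of 5 of 10 genes, SLC1A4, SLC1A5, SLC3A2, SLC7A1 and SLC38A1. Over all protein-coding genes 2.69% of windows and 3.60% of genes held it. No neuronal or glial SLC6 window of 6 held it, and 1 of 45 windows of the other members did, that of SLC1A3. A peak lay over 4 of the 6 member windows with a match, compared with 37.2% of the 597 such windows of all protein-coding genes. With or without a match, 37 of 67 member windows and 64.8% of all protein-coding windows lay under a peak. The 4 were all barrier windows, and 9 of the 10 barrier genes with an annotated start had a peak over a window. Of 14 genes of the amino acid response and of amino acid sensing with a window, 2 held TGATGNAA, ASNS and CHAC1, both under a peak. The others, among them the ATF4 targets DDIT3 and TRIB3, did not. A match is a run of letters and not a measured binding site, and genes with several windows had more chances to hold it.

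The windows with a match that were not yet shown are printed with the same capitals, to show where the composite lies. The match of SLC7A1, above, began 7 bases after the start. SLC1A3 is chr5:36596338-36596637 (plus strand), with the match 220 bases before the start and no peak over the window. SLC1A4 is the inner start chr2:64989149-64989448 (plus), with a reverse match 7 bases before the start, under the peak of 56.6 tags. SLC1A5 is chr19:46784765-46785064 (minus), an inner start with the match 97 bases before it, under a peak of 54.8 tags. SLC3A2 is the inner start chr11:62881449-62881748 (plus), with a reverse match 37 bases after the start, under the peak of 54.3 tags. SLC38A1 is the inner start chr12:46266467-46266766 (minus), with the match 4 bases before the start and no peak over the window.
SLC1A3: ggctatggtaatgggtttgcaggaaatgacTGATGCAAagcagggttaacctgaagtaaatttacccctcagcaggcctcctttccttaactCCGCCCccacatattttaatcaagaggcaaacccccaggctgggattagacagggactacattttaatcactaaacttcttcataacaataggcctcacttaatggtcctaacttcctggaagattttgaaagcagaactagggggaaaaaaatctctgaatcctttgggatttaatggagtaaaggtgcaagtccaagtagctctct
SLC1A4: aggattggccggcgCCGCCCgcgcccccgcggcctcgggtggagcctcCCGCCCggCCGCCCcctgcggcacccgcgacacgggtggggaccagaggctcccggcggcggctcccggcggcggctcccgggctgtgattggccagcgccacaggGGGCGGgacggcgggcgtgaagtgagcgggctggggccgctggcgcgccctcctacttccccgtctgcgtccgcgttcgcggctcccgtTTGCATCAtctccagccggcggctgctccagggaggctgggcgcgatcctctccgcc
SLC1A5: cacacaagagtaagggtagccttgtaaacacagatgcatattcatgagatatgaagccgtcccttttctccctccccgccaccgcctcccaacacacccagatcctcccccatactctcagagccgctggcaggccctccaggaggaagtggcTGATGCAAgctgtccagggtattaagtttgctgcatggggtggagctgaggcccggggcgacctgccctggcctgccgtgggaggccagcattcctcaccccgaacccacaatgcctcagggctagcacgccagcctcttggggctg
SLC3A2: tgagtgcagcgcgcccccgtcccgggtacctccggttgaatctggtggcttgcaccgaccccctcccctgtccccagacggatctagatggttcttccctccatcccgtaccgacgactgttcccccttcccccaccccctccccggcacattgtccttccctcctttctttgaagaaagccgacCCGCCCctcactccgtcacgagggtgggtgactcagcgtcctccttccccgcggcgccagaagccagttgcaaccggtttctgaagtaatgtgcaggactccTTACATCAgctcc
SLC38A1: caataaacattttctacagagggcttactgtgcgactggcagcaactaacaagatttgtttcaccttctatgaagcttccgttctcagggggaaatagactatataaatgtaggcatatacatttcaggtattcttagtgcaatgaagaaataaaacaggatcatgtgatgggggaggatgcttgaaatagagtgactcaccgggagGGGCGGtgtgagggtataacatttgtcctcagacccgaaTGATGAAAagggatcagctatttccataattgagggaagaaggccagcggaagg

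Over all 67 member windows, TGATGNAA was in 6 (8.96%) against 2.69% of all protein-coding windows. TGANTCA, the AP-1 site, was in 11 of 67 member windows (16.4%) against 6.14%, and CACGTG, the E-box, in 10 (14.9%) against 8.34%. GGGCGG was in 38 (56.7%) against 56.3%, and CCGGAA, an ETS site, in 8 (11.9%) against 21.2%. TATAAA was in 5 (7.46%) against 9.47%. By list, TGANTCA was in 2 of 16 barrier windows (12.5%) and 2 of 6 neuronal or glial windows (33.3%). GGGCGG was in 12 of 16 (75.0%) and 4 of 6 (66.7%). CACGTG was in 3 of 16 and 0 of 6, CCGGAA in 2 of 16 and 0 of 6, and TATAAA in 1 of 16 and 0 of 6. With 6 neuronal or glial windows, these counts and that of TGATGNAA are a description only.

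Related genes outside the rule were measured in the same way. Of 15 genes of the amino acid response and of amino acid sensing, all 15 had an end peak, against 72.8% of all protein-coding genes. Their median highest pileup was 64.8 tags, compared with 45.7 over all protein-coding genes that had an end peak. The values ran from 15.2 for PHGDH, an enzyme of serine synthesis, to 90.8 for MTOR. ATF4 itself had 65.5 tags. Of 12 amino acid carriers of other families, 9 had an end peak (75.0%), near the 72.8% of all protein-coding genes. The 3 without were SLC17A6, SLC17A7 and SLC17A8, the vesicular glutamate carriers of neurons, while the lysosomal cystine carrier CTNS had 73.9 tags and the aromatic amino acid carrier SLC16A10 18.7.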

How the data were processed

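hCMEC/D3 libraries were grouped by their titles into RNA (replicates 1 and 2) and ATAC (replicate 2), and the ATAC peak list was used. Per the file headers, the authors called broad peaks with MACS 2.2.7.1 on 1 library without a control, in single-end mode, with a shift of -100 bp, an extension of 200 bp, q of 0.05 and 0.1, 1 tag per position (22188172 of 31532245 tags) and a genome size of 1870000000 bp, the caller's mouse preset. That size sets a lowest background of 2.37 tags. The deposited columns used were the pileup signal, the fold enrichment ratio, the −log10 q-value and −log10 p-value, and length; they are the authors' values and only describe or filter peaks. The local background was computed as (pileup + 1) / fold - 1, whose lowest value was 2.37.

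Per the submitters' processing notes, GRCh38 and mm10 were used. The GRCh38.p14 RefSeq tables fitted the peaks: 64.8% of protein-coding promoter windows lay under a peak, and 4.96% to 6.48% after moving the peaks by 2 to 50 kb. Overlaps of at least 1 bp were counted with Python 3.11.15, pandas 2.3.3 and scipy 1.17.1, and the overlap code was tested on simulated data. Members were accounted for by family; values were to be given for the barrier list, the neuronal and glial SLC6 list, the highest end peak and the members without peaks of each family, and the 5 members with the most peaks, ties included, and those of other members were added after they were seen; promoters were printed for 3 barrier genes and for the first neuronal or glial SLC6 genes in symbol order with and without an end peak. Members, lists and rules were chosen with earlier results of these data known. The windows with a composite match were chosen for printing after the matches were seen. Alternatives were other windows, overlaps and peak filters. The values of 1 member, which is in the counts, are not reported here.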

Additional observations from a re-analysis of the deposited data

How the results depend on the processing

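Of 42 alternative values, 34 stayed within the 95% Wilson interval of a share or within 1.5-fold of a median, and 8 moved. Small lists have wide intervals, so staying within one is a weak requirement. For the neuronal or glial list it ran from 31.3% to 83.2%, and a fall from 6 to 4 of 10 genes counted as staying. With peaks of at least 4-fold, members with any peak were 78.3%, members with an end peak 36.7%, barrier genes with one 41.7% and the median number of peaks 2. As many peaks by highest pileup gave 78.3% with any peak and a median of 2, and peaks with −log10 q of at least 5 also a median of 2. Windows of 2500 bp gave 73.3% of members with an end peak. Stricter filters leave fewer peaks; over all protein-coding genes the 4-fold filter left 73.6% with any peak and 56.0% with an end peak, and the wider window gave 79.2%. In every setting run, the share with an end peak was higher in the barrier list than in the neuronal or glial list, by 41.7% against 40.0% in the closest, at 4-fold. Without end peaks that also lay at another protein-coding gene, a setting added with start sites after seeing the data, 55.0% of members had an end peak, against 55.5% of all protein-coding genes. No paired analysis was possible because the ATAC data used are 1 library. The depth is that of 1 library, and no replicate shows how far a pileup varies.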
